A study of Mus musculus with 2 samples.

Results

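Fatty acid oxidation and ketogenesis were followed through 38 genes in mouse liver RNA, out of 52636 Ensembl genes in the count tables. The genes were taken from a list of symbols through the GRCm38 GENCODE annotation, by a rule that sets no threshold on measured values, and all 38 were found; the list itself was drawn up with earlier results of these data known. They cover fatty acid binding and activation, the carnitine shuttle, the mitochondrial and peroxisomal oxidation steps, electron transfer, ketone body enzymes, acyl-CoA thioesterases and regulators.

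The study compared wild-type mice (WT) with mice lacking Gbp5 (KO, Gbp5-/-), an interferon-inducible GTPase, in acute liver injury. Both groups were C57BL/6 mice 9 weeks old that had received D-galactosamine at 800 µg/g and lipopolysaccharide at 100 ng/g body weight, and livers were taken after 6 h. D-galactosamine sensitises hepatocytes to the endotoxin lipopolysaccharide. Each genotype is 1 library, made from the pooled RNA of 4 livers, which leaves 2 libraries and no replicates. No difference below has a replicate check or a p-value, and every interval is a 95% counting interval that compares these libraries, not the genotypes. An untreated liver was not analysed here, so each value describes livers under treatment.

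Long-chain fatty acids are activated to acyl-CoA, passed into mitochondria as carnitine esters, and shortened in repeated rounds of dehydrogenation, hydration, a second dehydrogenation and thiolytic cleavage. Peroxisomes run a parallel pathway that shortens very long chains and dicarboxylic acids and hands the products on to mitochondria. In the fasting liver much of the resulting acetyl-CoA is turned into ketone bodies, and the receptor PPARα drives many genes of all these steps.

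The WT library held 19864848 reads on genes and the KO library 15750875, a ratio of 1.26. Gbp5 was 2.92-fold lower in KO (95% counting interval 2.71 to 3.15), with 3211 reads in WT and 873 in KO; which exons were deleted is not given in the sources used here. Hepatocyte markers were abundant in both libraries, 6 of 7 of them higher in KO, and their summed level was 59508 CPM (reads of a gene scaled to the library's total) in WT and 96070 in KO. Alb alone made up 38384 and 69250 CPM of these sums. The ratios of the other markers ran from 0.990 at Apoa1 to 1.79 at Apob. All 8 Kupffer cell and macrophage markers were lower in KO (summed 1062 and 455 CPM), as were all 5 T and NK cell markers (55.9 and 23.6 CPM). Gzmb alone made up 46.9 and 19.2 CPM of the T and NK cell sums. Cd3e had 27 and 14 reads and an interval that includes 1. In bulk RNA, fewer cells of a type and less RNA per cell cannot be told apart, and the part that this difference in makeup has in the values below was not tested. Of 7 cholangiocyte markers 6 were higher in KO (summed 149 and 239 CPM). Among adipocyte markers Adipoq had 17 and 1 reads in WT and KO, Lep 13 and 0, Plin1 2 and 0 and Cidea 1 and 1. Fabp4, the most abundant of them, had 1556 and 1158 reads, and its interval includes 1. Exocrine pancreas markers went both ways. Ctrb1 had 0 and 297 reads, Cela1 521 and 328 and Prss2 1 and 0, while Cpa1 and Pnlip were at 0 in both libraries.

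The 38 genes hold 2 pairs of near-identical copies, which limits how their reads can be assigned. Acot1 and Acot2, cytosolic and mitochondrial thioesterases that release free fatty acids from acyl-CoA, were 95.6% identical over 1232 aligned coding bases. Acaa1a and Acaa1b, the peroxisomal thiolases that carry out the final cleavage, were 96.5% identical over 1272 coding bases. The 60-base coding stretches below, from GRCm38 exons with chr12:84009844-84009903 and chr12:83988359-83988418 on the plus strand for the first pair, and chr9:119346470-119346529 on the plus strand and chr9:119151855-119151914 on the minus strand for the other, show how few bases separate the copies. Capitals mark the bases that differ within a pair.
Acot1: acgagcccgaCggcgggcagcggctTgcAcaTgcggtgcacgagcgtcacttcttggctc
Acot2: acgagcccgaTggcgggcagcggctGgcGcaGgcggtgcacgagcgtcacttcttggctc
Acaa1a: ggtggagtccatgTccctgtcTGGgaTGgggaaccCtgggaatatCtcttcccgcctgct
Acaa1b: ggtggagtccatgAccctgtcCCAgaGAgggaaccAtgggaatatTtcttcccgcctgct
Acot1 and Acot2 differ at 4 of these 60 bases and Acaa1a and Acaa1b at 8. The longest stretch without a difference was 273 bases in the first pair and 327 bases in the second, so a read lying inside such a stretch fits both copies. Values of these 4 genes are therefore uncertain as to which copy they belong to, to an extent that was not measured.

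Hadha and Hadhb encode the α and β subunits of the mitochondrial trifunctional protein and lie head to head on chromosome 5. Their annotated starts leave a gap of 85 bases, shown in capitals with 10 bases of each gene on either side, from RefSeq GRCm38.p6, chr5:30155153-30155257, plus strand. It is printed because the 2 genes share this stretch but differed in their ratio between the libraries.
Hadha and Hadhb gap: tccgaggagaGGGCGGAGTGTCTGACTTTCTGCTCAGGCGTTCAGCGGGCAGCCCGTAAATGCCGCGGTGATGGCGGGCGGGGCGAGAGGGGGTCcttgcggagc
Its GC content, flanks included, was 68.6%.

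PPARα binds, with its partner RXR, to direct repeats of a receptor half-site. RefSeq promoter windows (GRCm38.p6, 250 bases before to 50 bases after a start, 300 in all) were found for 33 of the 38 genes; Decr1, Acat1, Acaa2, Crat and Angptl4 had none. The direct repeat AGGTCANAGGTCA was searched on both strands with up to 2 differences in its 12 fixed letters. It was present in 3.86% of all 32851 windows and in 4 of the 35 windows of these genes (11.4%). Those windows belong to 4 of the 33 genes, namely Fabp1, Acot12, Etfa and Slc25a20. A share per gene over all genes is not given here. The 3 matches that lie before the start are printed with their surroundings, the match in capitals, to show how far each is from the repeat, which reads from the opposite strand in all 3.
Fabp1: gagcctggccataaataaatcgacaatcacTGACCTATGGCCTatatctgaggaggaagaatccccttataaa
Acot12: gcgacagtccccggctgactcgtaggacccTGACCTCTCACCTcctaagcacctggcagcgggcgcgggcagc
Etfa: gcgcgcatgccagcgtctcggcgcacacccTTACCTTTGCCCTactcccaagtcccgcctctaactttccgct
They lie at chr6:71199782-71199854 on the plus strand, 67 bases before the start and with 1 difference, at chr13:91741381-91741453 on the plus strand, 110 bases before the start and with 1 difference, and at chr9:55512278-55512350 on the minus strand, 77 bases before the start and with 2 differences. A match is a description of the letters and not a binding site, and binding was not measured here.

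Across the 38 genes most levels were modestly higher in KO, and 5 genes were lower with an interval below 1: Acads, Acaa1a, Acaa1b, Acot1 and Acot2. Of the 37 genes that reached 1 FPKM, that is, CPM per kilobase of transcript, in either library, 27 had a higher CPM in KO and 10 a lower one; 73.0% were thus above 0 on the log2 scale, against 45% of all 11629 genes tested the same way. Ppargc1a stayed under 1 FPKM, and Fgf21 passed through its KO level alone. The median log2 ratio of KO over WT was 0.28 for these genes and -0.08 for all genes. Large ratios were not more frequent than elsewhere: 4 genes (Crat, Hadhb, Eci2 and Fgf21) were at least 1.5-fold higher, 10.8% of the 37 against 10.8% of all genes, and 4 genes (Acaa1a, Acaa1b, Acot1 and Acot2) were at least 1.5-fold lower, 10.8% against 25.4%. At 2-fold there was 1 gene higher (Fgf21, background 3.65%) and 1 lower (Acot2, background 12.4%). Acsl1, Cpt1a, Acot12, Decr1 and Decr2 lay just under 1.5-fold, so the higher count depends on where the line is drawn. Counting error left 25 of the 38 intervals above a ratio of 1, 5 below it and 8 across it. The same counts over all genes were not taken, so these have no background to be read against. With a median of 2398.5 reads per member in WT, small ratios already give intervals that leave out 1. In sum the 38 genes took 0.850% of gene reads in WT and 0.954% in KO.

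**Figure D1:**
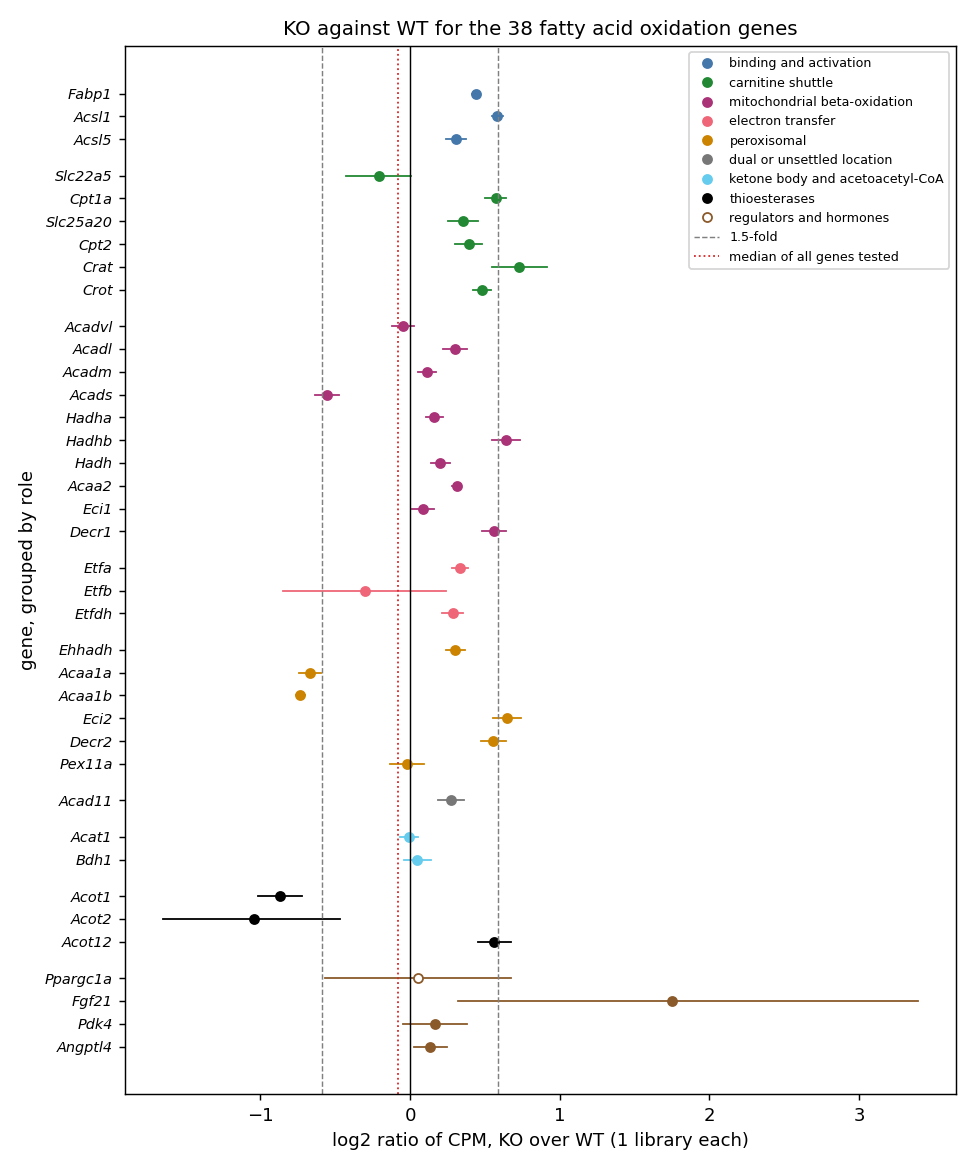
Log2 ratio of CPM, KO over WT, for each of the 38 genes, grouped and coloured by role (x axis, log2; 1 library each); bars are 95% counting intervals, dashed lines mark 1.5-fold, the dotted line the median of all genes tested (-0.08) and the open point a gene under 1 FPKM in both libraries. Most points lie between 0 and the 1.5-fold line, and Acaa1a, Acaa1b, Acot1 and Acot2 lie beyond that line on the lower side.

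The ratio of KO to WT went with the base composition of the transcripts in these libraries. Among 10114 protein-coding genes the rank correlation of the log2 ratio with GC content was -0.48 (Pearson -0.43), and among the 37 members -0.40 (Pearson -0.37); genes share a library and are not replicates, so both are descriptions. The 4 members above 55% GC were Acads, Etfb, Acaa1a and Acaa1b, and all 4 were lower in KO, with a median of -0.61 where all genes of that class had -0.65. Of these, Etfb had only 76 and 49 reads and an interval that includes 1, and Acaa1a and Acaa1b are near-identical copies. The 8 members up to 45% GC were all higher, with a median of 0.52 against 0.23 for all genes of that class. Each log2 ratio was therefore also given less the median of genes of like GC content and length, called corrected below, a step that takes away true differences tied to these properties as well. After it the median of the members was 0.18 (all genes -0.00), and 28 of 37 lay above 0, against 49.4% of all genes tested. By size, 4 genes were at least 1.5-fold higher (background 11.4%) and 2 at least 1.5-fold lower (background 16.8%). Crat, Eci2 and Fgf21 were among the higher genes both ways, Cpt1a joined them and Hadhb left, and Acot1 and Acot2 were the lower genes both ways. Fgf21, with 6 and 16 reads, passed the filter at 1 FPKM only through KO, where it is higher, so its place there depends on that filter. What sets the relation with GC content was not tested.

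**Figure D2:**
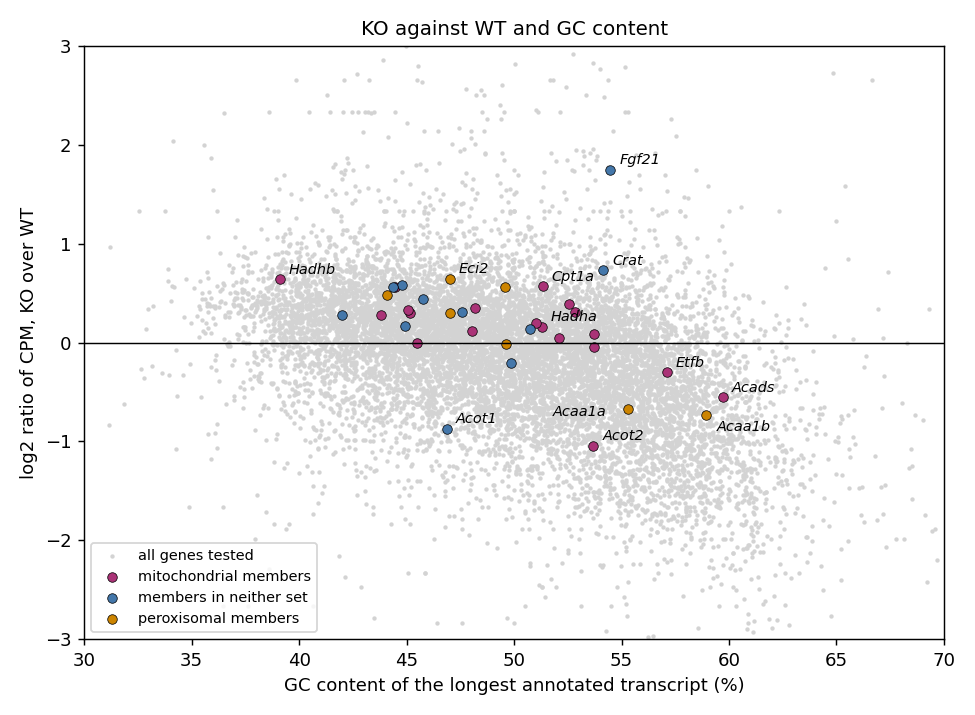
Log2 ratio of CPM, KO over WT (y axis), against GC content of the longest annotated transcript in percent (x axis); grey points are all genes tested, of which 84 lie outside the plotted range, and coloured points are mitochondrial members, peroxisomal members and members in neither set. Acads, Etfb, Acaa1a and Acaa1b, the 4 members above 55% GC, all lie below 0.

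Binding and activation genes were higher in KO in all 3 cases. Fabp1, the liver fatty acid binding protein and the most abundant member by FPKM, had 27853 reads in the WT library and 29951 in the KO library (2535 and 3439 FPKM), a ratio of 1.36 (1.33 to 1.38). Acsl1, the main long-chain acyl-CoA synthetase of liver, had 10931 and 12967 reads (52.5 and 78.5 FPKM), a ratio of 1.496 (1.46 to 1.53). Acsl5, a related synthetase, had 3887 and 3813 reads (40.2 and 49.8 FPKM), a ratio of 1.24 (1.18 to 1.29). The corrected log2 ratios were 0.18 for Fabp1, 0.52 for Acsl1 and 0.30 for Acsl5, so the order between the first and the last depends on the correction. Together the 3 genes had a summed ratio of 1.38 (1.36 to 1.40).

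The carnitine shuttle was higher in KO at 5 of 6 genes, with a median log2 ratio of 0.44 (corrected 0.37). Cpt1a, the malonyl-CoA-sensitive outer membrane transferase that is the main control point of entry into mitochondria, had 3113 and 3671 reads (20.5 and 30.5 FPKM), a ratio of 1.49 (1.42 to 1.56). Its corrected log2 ratio was larger, 0.89 against 0.57, because genes of like composition and length were lower in KO. Slc25a20, the carnitine-acylcarnitine carrier of the inner membrane, had 1591 and 1613 reads (16.5 and 21.1 FPKM), a ratio of 1.28 (1.19 to 1.37). Cpt2, which turns the carnitine ester back into acyl-CoA in the matrix, had 1870 and 1944 reads (39.4 and 51.6 FPKM), a ratio of 1.31 (1.23 to 1.40). The 3 consecutive steps of entry were thus all higher in KO, with intervals that lie above 1. Crat, the carnitine acetyltransferase of short chains, had 423 and 556 reads (3.95 and 6.55 FPKM), and its ratio of 1.66 (1.46 to 1.89) was the highest of the shuttle. Crot, the peroxisomal octanoyltransferase that prepares shortened chains for export, had 4148 and 4591 reads (38.3 and 53.4 FPKM), a ratio of 1.40 (1.34 to 1.46). Slc22a5, the plasma membrane carnitine transporter, was the exception with 437 and 300 reads (7.16 and 6.20 FPKM), and the interval of its ratio of 0.866 (0.745 to 1.01) includes 1.

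Inside the mitochondrial matrix 8 of 10 β-oxidation genes were higher in KO, by small ratios, with a median of 0.18 (corrected 0.27). The first dehydrogenation is split by chain length among acyl-CoA dehydrogenases. Acadvl, for very long chains, had 3584 and 2748 reads (67.2 and 65.0 FPKM), a ratio of 0.967 (0.920 to 1.02). Acadl, for long chains, had 2497 and 2436 reads (62.7 and 77.1 FPKM), a ratio of 1.23 (1.16 to 1.30). Acadm, for medium chains, had 5319 and 4561 reads (68.4 and 74.0 FPKM), a ratio of 1.08 (1.04 to 1.13). Acads, for short chains, stood apart from these 3. It had 3434 and 1853 reads (76.2 and 51.8 FPKM) and was 1.47-fold lower in KO (1.39 to 1.56). It was also the member with the highest GC content, 59.7%, and its corrected log2 ratio was -0.06 against -0.56. Acadvl shares 42.9% of its exonic length with Dvl2 on the opposite strand, so part of its reads could not be assigned with certainty where strand was not used.

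The trifunctional protein catalyses the remaining long-chain steps. Hadha, its α subunit with hydratase and dehydrogenase activity, had 5381 and 4772 reads (31.0 and 34.7 FPKM), a ratio of 1.12 (1.08 to 1.16). Hadhb, the β subunit with thiolase activity, had 1765 and 2183 reads (13.5 and 21.0 FPKM), a ratio of 1.56 (1.46 to 1.66). The 2 intervals do not overlap, although the genes start on either side of the 85-base gap printed above. Their transcripts differ in GC content, 51.3% for Hadha and 39.1% for Hadhb, and after the correction the order turned round, 0.48 for Hadha and 0.34 for Hadhb. Hadh, the dehydrogenase of shorter chains, had 4178 and 3807 reads (42.3 and 48.6 FPKM), a ratio of 1.15 (1.10 to 1.20). Acaa2, the matrix thiolase and the most abundant mitochondrial member by reads and by FPKM, had 16996 and 16726 reads (564 and 700 FPKM), a ratio of 1.24 (1.21 to 1.27). Both were higher in KO by less than 1.5-fold. For unsaturated chains, the isomerase Eci1 had 3231 and 2718 reads (76.5 and 81.1 FPKM), a ratio of 1.06 (1.01 to 1.12). The reductase Decr1 had 2238 and 2618 reads (29.0 and 42.8 FPKM), a ratio of 1.48 (1.39 to 1.56).

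Electrons from the acyl-CoA dehydrogenases pass through the flavoprotein ETF to its oxidoreductase. Etfa, the α subunit of ETF, had 5660 and 5647 reads (155 and 195 FPKM), a ratio of 1.26 (1.21 to 1.31). Etfdh, the oxidoreductase that passes the electrons to ubiquinone, had 3330 and 3214 reads (22.3 and 27.2 FPKM), a ratio of 1.22 (1.16 to 1.28). Both were higher in KO and near 0 after the correction (0.08 for each). Etfb, the β subunit, was listed with 76 and 49 reads (3.29 and 2.67 FPKM), far under its partner. It shares 58.2% of its annotated exonic length with other genes on the same strand, so its level is uncertain, and its ratio of 0.813 (0.556 to 1.18) has an interval that includes 1.

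**Figure D3:**
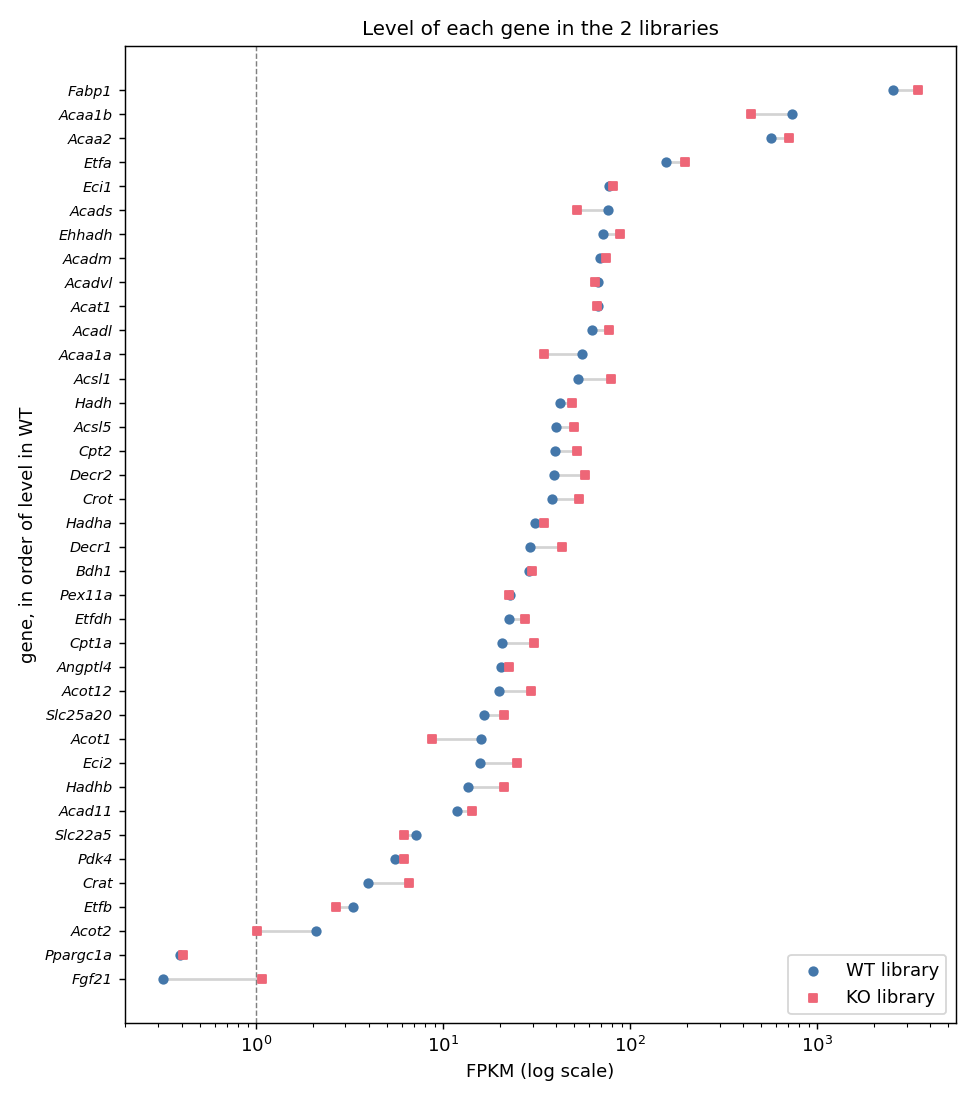
FPKM of each member in the WT library (circles) and the KO library (squares) on a log scale (x axis), in order of the WT level (y axis); the dashed line marks 1 FPKM. Fabp1 is highest at 2535 and 3439 FPKM, and Ppargc1a and Fgf21 are lowest.

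The peroxisomal genes lay on both sides of 1, with 3 of 6 higher and 3 lower in KO. Ehhadh, the bifunctional enzyme of hydration and dehydrogenation, had 4234 and 4138 reads (71.5 and 88.1 FPKM), a ratio of 1.23 (1.18 to 1.29). Acaa1b, the more abundant thiolase, had 28544 and 13603 reads (732 and 440 FPKM) and was 1.66-fold lower in KO (1.63 to 1.70). Acaa1a had 4806 and 2398 reads (54.8 and 34.5 FPKM) and was 1.59-fold lower (1.51 to 1.67). Both of these thiolase genes were thus lower in KO and Ehhadh was higher; further peroxisomal enzymes that can act at the same steps are counted with the other peroxisomal genes below. The corrected log2 ratios of Acaa1a and Acaa1b were -0.15 and -0.24, against -0.67 and -0.73 without the correction. Eci2, an isomerase placed with the peroxisomal genes here, had 1737 and 2157 reads (15.8 and 24.7 FPKM), a ratio of 1.57 (1.47 to 1.67). Decr2, the peroxisomal reductase of unsaturated chains, had 2052 and 2394 reads (38.9 and 57.3 FPKM), a ratio of 1.47 (1.39 to 1.56). These auxiliary enzymes were both higher, and their corrected log2 ratios were 0.64 and 0.42. Pex11a, a membrane protein of peroxisome division, had 1439 and 1127 reads (22.8 and 22.5 FPKM), a ratio of 0.988 (0.913 to 1.07). Acad11, an acyl-CoA dehydrogenase placed in neither compartment here, had 2300 and 2205 reads (11.8 and 14.3 FPKM), a ratio of 1.21 (1.14 to 1.28).

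Mitochondrial and peroxisomal members were set side by side by assigning 19 genes to mitochondria and 7, with Crot, to peroxisomes, leaving 12 in neither. Of the 19 mitochondrial genes 14 were higher and 5 lower in KO, with a median log2 ratio of 0.20 (corrected 0.17), a lowest value of -1.04 at Acot2 and a highest of 0.64 at Hadhb. Of the 7 peroxisomal genes 4 were higher and 3 lower, with a median of 0.30 (corrected 0.19), a lowest value of -0.73 at Acaa1b and a highest of 0.65 at Eci2. The medians thus differed by -0.10, mitochondrial less peroxisomal, and the ranges overlapped. Summed reads gave the other order, because Acaa1b outweighs the rest of its set: the summed ratio was 1.17 (1.16 to 1.18) for mitochondrial genes and 0.817 (0.805 to 0.829) for peroxisomal ones. Without Acaa1a and Acaa1b the 5 other peroxisomal genes had a summed ratio of 1.34 (1.30 to 1.37) and a median of 0.48. The order of the summed ratios thus turned with 1 gene pair, whose transcripts have a GC content of 55.3% and 58.9%.

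The same chemical step could be compared between the compartments, as the genes were assigned here, at 4 points. The reductases Decr1 and Decr2 had ratios of 1.48 and 1.47 in the 2 compartments, with overlapping intervals. The isomerases Eci1 and Eci2 had 1.06 and 1.57, with intervals apart, and the corrected log2 ratios were likewise apart at 0.06 and 0.64. For the hydratase and dehydrogenase step, Hadha and Ehhadh had 1.12 and 1.23, and the corrected log2 ratios gave the other order, 0.48 and 0.19. At the listed thiolases, Acaa2 at 1.24 and Hadhb at 1.56 in mitochondria were higher in KO. Acat1, also a mitochondrial thiolase, was near 1 at 0.994. In peroxisomes Acaa1a and Acaa1b were lower, at 0.629 and 0.601. The corrected log2 ratios were 0.28 for Acaa2, 0.34 for Hadhb and -0.16 for Acat1, against -0.15 for Acaa1a and -0.24 for Acaa1b. Direction thus did not divide all the listed thiolases by compartment.

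**Figure D4:**
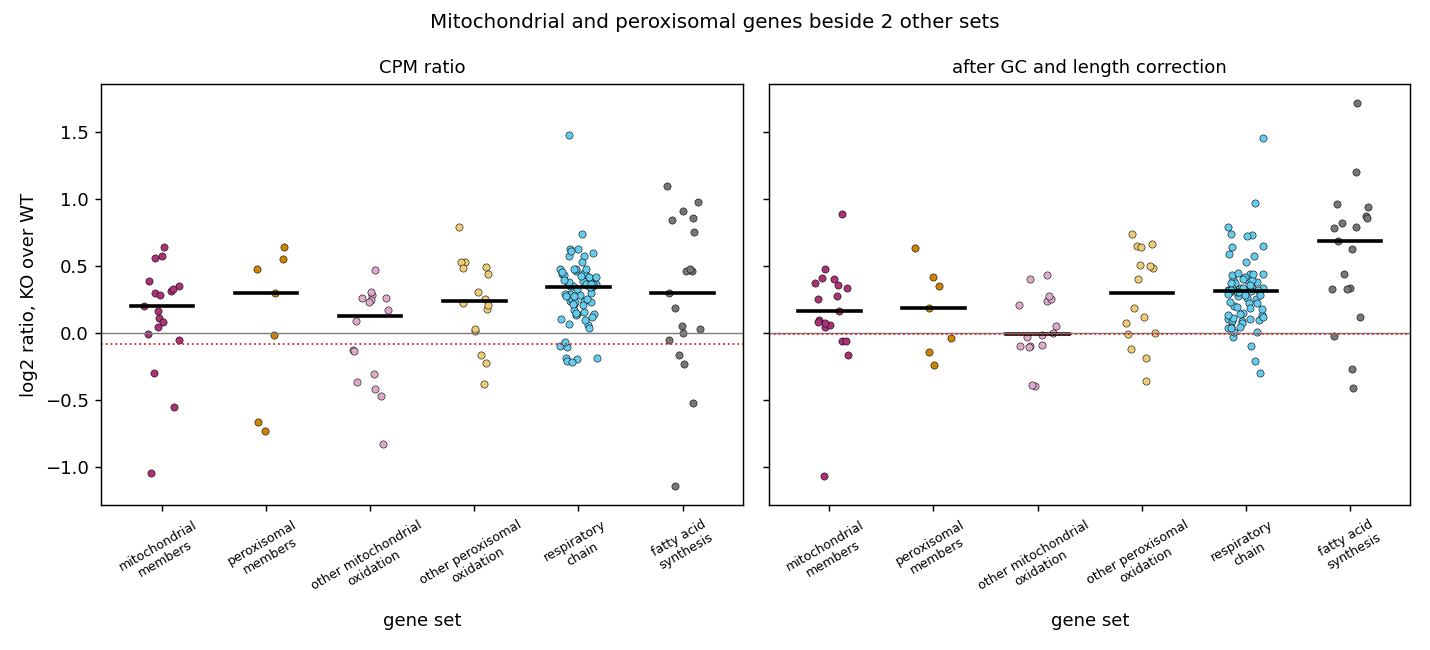
Log2 ratio of CPM, KO over WT (y axis), as measured (left) and after the GC and length correction (right), for mitochondrial and peroxisomal members, other oxidation genes of both compartments, respiratory chain subunits and fatty acid synthesis genes (x axis); each point is a gene tested, bars are medians and the dotted line is the median of all genes tested. The medians of mitochondrial and peroxisomal members are 0.20 and 0.30 on the left and 0.17 and 0.19 on the right.

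Other genes of each compartment, outside the 38, were counted in the same way. Of 16 other mitochondrial oxidation genes tested, 9 were higher and 7 lower, with a median of 0.13 (corrected -0.01). Acot13, a thioesterase of the matrix, was highest at a ratio of 1.38 (1.22 to 1.58), and Slc25a42, a carrier of coenzyme A, was lowest at 1.78-fold lower in KO (1.65 to 1.92). The GC content of Slc25a42 is 56.1%, and its corrected log2 ratio was -0.10 against -0.83. Of 16 other peroxisomal oxidation genes, 13 were higher and 3 lower, with a median of 0.24 (corrected 0.30). Nudt7, a peroxisomal hydrolase of coenzyme A, was highest at a ratio of 1.73 (1.66 to 1.81). The peroxisomal list thus kept its median after the correction and the mitochondrial list did not. Nuclear-encoded respiratory chain subunits were higher in KO at 68 of 76 genes, with a median of 0.35 (corrected 0.31). Fatty acid synthesis genes, the opposing pathway, were higher at 14 of 19, with a median of 0.30 (corrected 0.69).

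The 2 ketone body genes among the 38 were nearly equal between the libraries. Acat1, the acetoacetyl-CoA thiolase of mitochondria, had 5009 and 3947 reads (67.1 and 66.7 FPKM), a ratio of 0.994 (0.953 to 1.04). Bdh1, which reduces acetoacetate to β-hydroxybutyrate, had 2220 and 1819 reads (28.7 and 29.7 FPKM), a ratio of 1.03 (0.971 to 1.10). Both intervals include 1, and the wider of them, that of Bdh1, ends at 1.10. Genes of ketone body use and transport were higher in KO. Aacs, which activates acetoacetate in the cytosol for lipid synthesis, had 532 and 1046 reads and a ratio of 2.48 (2.23 to 2.76). Slc16a1, a monocarboxylate transporter, had 667 and 783 reads and a ratio of 1.48 (1.33 to 1.64). Oxct1, which starts ketone body use outside the liver, had 135 and 144 reads and a ratio of 1.35 (1.06 to 1.71). Of the 6 ketone body genes outside the 38 that were tested, 4 were higher and 2 lower.

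The thioesterases divided by family member. Acot1 had 1235 and 536 reads (15.9 and 8.68 FPKM) and was 1.83-fold lower in KO (1.65 to 2.03). Acot2 had 91 and 35 reads (2.09 and 1.01 FPKM) and was 2.06-fold lower (1.38 to 3.14). These were the lowest ratios among the 38, and unlike those of Acaa1a and Acaa1b they kept their size after the correction, at -0.98 and -1.07 against -0.87 and -1.04. The pair shares most of its coding sequence, and how many reads fit both copies was not counted. Whether the difference lies in Acot1 alone or in both was therefore not settled. Acot12, a cytosolic acetyl-CoA thioesterase, had 1303 and 1527 reads (19.9 and 29.4 FPKM), a ratio of 1.48 (1.37 to 1.59).

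Regulators among the 38 were low or close to equal. Pdk4, the kinase that holds back pyruvate dehydrogenase when fat is burned, had 383 and 341 reads (5.49 and 6.17 FPKM), a ratio of 1.12 (0.968 to 1.30). Angptl4, a secreted inhibitor of lipoprotein lipase, had 1435 and 1249 reads (20.4 and 22.4 FPKM), a ratio of 1.10 (1.02 to 1.19). Ppargc1a, the coactivator of oxidation genes, had 51 and 42 reads (0.389 and 0.405 FPKM), and its interval (0.674 to 1.59) is too wide to place it. Fgf21, a fasting hormone of the liver, had 6 and 16 reads (0.318 and 1.07 FPKM), a ratio of 3.36 (1.25 to 10.5) that rests on few reads.

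Genes widely described as PPARα targets, picked here with their values known, lay on both sides of 1. Cyp4a14, a microsomal ω-hydroxylase, had 1269 and 2259 reads and a ratio of 2.25 (2.09 to 2.41), and Cyp4a10 had 2819 and 3293 reads and a ratio of 1.47 (1.40 to 1.55). Fabp1, Acsl1, Cpt1a and Ehhadh were higher, Pdk4, Angptl4 and Pex11a lay near 1, and Acot1 and Acaa1b were lower. Over the 10 ω-oxidation genes the median was 0.08, with 6 higher and 4 lower. Ppara itself had 467 and 496 reads, a ratio of 1.34 (1.18 to 1.52). Of 14 regulators outside the 38, 9 were higher and 5 lower. Lpin1, a coactivator and phosphatidate phosphatase, had 2975 and 5060 reads and a ratio of 2.15 (2.05 to 2.25). Sirt1, a deacetylase, had 206 and 377 reads and a ratio of 2.31 (1.94 to 2.75). Prkaa2, a catalytic subunit of AMP kinase, had 281 and 507 reads and a ratio of 2.28 (1.96 to 2.64). The corrected log2 ratios were 1.42 for Lpin1, 1.08 for Sirt1 and 0.92 for Prkaa2. Ppargc1b, related to Ppargc1a, had 86 and 28 reads and was 2.44-fold lower (1.57 to 3.88). It passed 1 FPKM through its WT level alone (1.09 and 0.446 FPKM). Ppard had 496 and 191 reads and was 2.06-fold lower (1.74 to 2.45). The corrected log2 ratios of Ppargc1b and Ppard were -0.36 and -0.58.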

How the data were processed

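Deposited files give, for 1 pooled library per genotype, whole-number read counts per gene, which the authors' file names call FPKM; they were read as raw counts. TopHat2, HTSeq 0.6.1 and GRCm38 were used per the submitters' processing notes; annotation release and strand setting: not given in the sources used here. Of 52845 entries, 209 without an annotated gene (0.652% of reads in WT, 0.496% in KO) were left out of totals. CPM was taken over all Ensembl genes. FPKM was computed here over the merged exon length from GENCODE M21, and so depends on that release. A gene was tested, for size only, at 1.5-fold and 2-fold, if 1 or both libraries reached 1 FPKM and held more than 3 reads. Intervals are exact Clopper-Pearson intervals at 95%, conditional on the reads of both libraries; they cover counting error only. A floor of 3 reads was 0.151 CPM in WT and 0.190 in KO. The correction subtracted the median log2 ratio of genes with 100 or more reads in 10 GC bins by 4 length bins. No test across replicates was possible.

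Alternatives were TMM and median-of-ratios scaling, totals without the 50 most abundant or the mitochondrially encoded genes, the correction, pseudocounts of 1 and 0.1 on FPKM, no filter, a filter at 5 FPKM, a protein-coding background, and leaving out the near-identical genes. Named genes are all 38 members, any gene of the ketone body, ω-oxidation and regulator lists, the 2 highest and 2 lowest of each other list, and Gbp5; marker and overlapping genes are named beside the values they touch. Some genes that this rule names are not reported here. The members and lists were chosen with earlier results of these data known, although the rule for members uses no measured value. Scripts were tested on simulated data. Python 3.11.15, numpy 2.4.6, scipy 1.17.1, pandas 2.3.3, matplotlib 3.10.9 and Biopython 1.88 were used; TMM factors, and nothing else, came from edgeR 4.0.16 under R 4.3.3.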

Additional observations from a re-analysis of the deposited data

How the results depend on the processing

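Scaling moved the number of members at least 1.5-fold higher from 4 to 8 with TMM and to 9 with totals without the 50 most abundant genes; 5 genes lie just under the line. The latter total shifted the median of all genes by 0.10 and gave medians of 0.39 for all members, 0.30 for mitochondrial and 0.41 for peroxisomal ones. With the GC and length correction 2 members were at least 1.5-fold lower, and the medians were 0.18 for all and 0.19 for peroxisomal members, with a difference of -0.024 between mitochondrial and peroxisomal medians. A filter at 5 FPKM gave a mitochondrial median of 0.28 and a difference of -0.018. Without the near-identical genes 0 members were 1.5-fold lower, by construction, the peroxisomal median was 0.48 and the difference -0.24. The medians of all, mitochondrial and peroxisomal members stayed above 0 under every alternative run. The difference between mitochondrial and peroxisomal medians also stayed below 0. Scaling shifts every gene by the same amount and so could not change that difference, which was -0.10 under each scaling. It was also -0.10 with no filter and with the protein-coding background. The median of all genes tested went from -0.08 to 0.02 with totals without the 50 most abundant genes, with 51.7% of them above 0 against 45%. The peroxisomal summed ratio of 0.817 was 1.34 without Acaa1a and Acaa1b. Single genes near 0 changed sign: Acat1 and Pex11a with TMM, with totals without mitochondrially encoded genes and, with Acadvl, with totals without the 50 most abundant genes; Acadvl (to 0.26) and Ppargc1a (to -0.12) with the correction. No paired analysis was possible because each genotype has 1 library. Depth limits Fgf21, Ppargc1a, Acot2 and Etfb among the members, and Ppargc1b among the other regulators, each under 100 reads in both libraries.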

Other observations

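Peroxisome biogenesis genes, which import matrix enzymes and divide the organelle, were higher in KO at 11 of 15, with a median log2 ratio of 0.20 (corrected 0.28). Pex6, an ATPase that helps release the import receptor from the membrane, had 5761 and 2009 reads and was 2.27-fold lower in KO (2.16 to 2.39); its transcript has a GC content of 63.0%, and its corrected log2 ratio was -0.26. Summed over the 15 genes the ratio was 0.855, below 1 while the median was above 0.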
